A study of Mus musculus with 4 samples.

Results

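The 10 genes described here mark the endothelium, the cell layer that lines blood and lymph vessels: Pecam1, Cdh5, Tek, Tie1, Vwf, Erg, Emcn, Esam, Prox1 and Lyve1. They were chosen by name, as genes of vessel and lymphatic identity without the Vegf receptors, to ask whether a control sarcoma was of vascular type. They are 10 of the 56691 genes in the table, and all 10 were among the 17188 genes with enough reads to be tested. The tissue was sarcoma tumor from mice whose genotype the labels give as p53R282W/+ and the study's methods as p53-R279W in 1 allele, a model of Li-Fraumeni syndrome on the C57BL/6N background. Sarcomas ATO 1 and ATO 2 came from mice that drank arsenic trioxide (ATO) at 35 mg per litre of water from day 90 of life, and PBS 1 and PBS 2 were the controls, which the labels call PBS and the methods untreated. All 4 samples therefore carried the mutant allele, which was introduced into the germline by genome editing, and no wild-type mouse or normal tissue was analysed here.

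Sarcomas of this line included angiosarcomas, a tumor of endothelial cells, as well as other soft-tissue sarcomas and osteosarcomas, and the labels do not say which kind each sample was. The age at collection is not given, and nothing beyond the group names says that the samples of a group came from separate mice, so the spread between them may be in part technical. Each library held between 15259695 and 18134000 counted reads. The share of reads from mitochondrially encoded genes was 1.98% in PBS 1, 1.99% in PBS 2, 2.59% in ATO 1 and 14.7% in ATO 2.

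Endothelial cells hold together through the adhesion proteins Cdh5 (VE-cadherin), Pecam1 (CD31) and Esam, and their surface carries the receptor tyrosine kinase Tek (Tie2), which binds the angiopoietins, with its partner Tie1. The ETS-family transcription factor Erg maintains this programme, Emcn is a sialomucin of capillaries and veins, and Vwf is the clotting glycoprotein that endothelium stores and secretes. Prox1 and Lyve1, a homeobox factor and a hyaluronan receptor, mark lymphatic endothelium. Platelets and their precursors also use Vwf, Pecam1 and Erg, some macrophages use Lyve1 and Pecam1, and Prox1 is used in liver and muscle as well.

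The sarcoma PBS 2 held the highest level of all 10 genes. Summed over the 10, the level in FPKM, the read count scaled for exon length and library size, was 1311 in PBS 2, against 149.6 in PBS 1, 125.1 in ATO 1 and 221.2 in ATO 2. Counts of genes by sarcoma were made on a second scale, counts per library scaled by the trimmed mean of M values (TMM, in CPM), unless FPKM is named. On that scale PBS 2 was at least 2 times above each other sarcoma for 9 of the 10 and at least 4 times above each for 6 of the 10. The same held for 4.88% and 1.31% of all tested genes. In FPKM the counts were 9 and 8 of the 10, against 6.46% and 1.77% of genes. The exception at 2 times was Vwf on both scales. The control group held the highest sarcoma for every member and also the lowest, PBS 1, for 7 of the 10 in CPM and 6 of the 10 in FPKM. In FPKM, PBS 1 was the lowest for 21.8% of all tested genes.

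**Figure D1:**
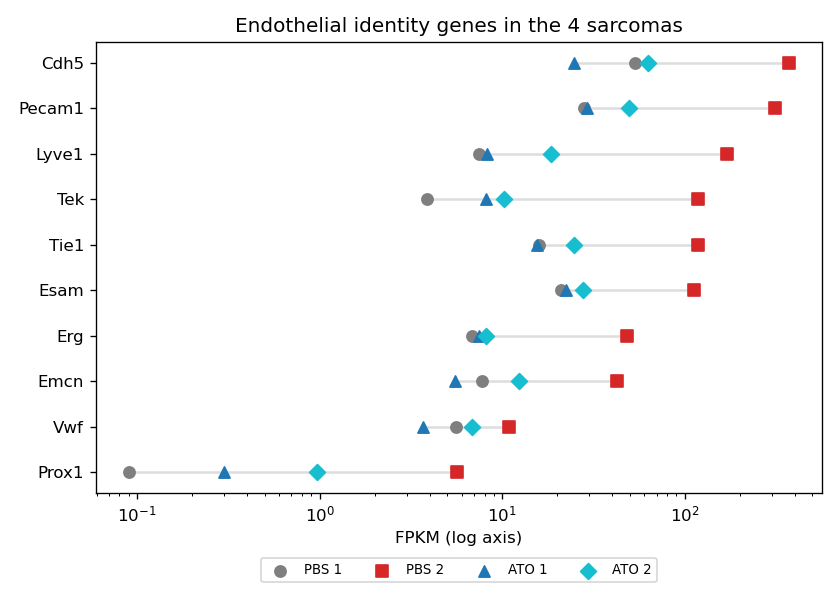
The FPKM of the 10 endothelial identity genes in each of the 4 sarcomas, on a log axis, with 1 point a sarcoma. The PBS 2 point lies above the other 3 for every gene, from 10.87 FPKM for Vwf against 6.84 in the next sarcoma to 371.97 for Cdh5 against 62.68.

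Cdh5 and Pecam1, the adhesion proteins of the endothelial junction, were the most abundant members in PBS 2. Cdh5 (ENSMUSG00000031871, chromosome 8, 104101625 to 104144511, GRCm38) stood at 53.18 FPKM in PBS 1, 371.97 in PBS 2, 24.68 in ATO 1 and 62.68 in ATO 2. Pecam1 (ENSMUSG00000020717, chromosome 11, 106654217 to 106750628) stood at 28.03, 312.43, 29.07 and 49.29 FPKM in the same order. Among the 17188 tested genes ranked by FPKM, Cdh5 was at place 63 and Pecam1 at place 81 in PBS 2, against 794 and 1765 in PBS 1. In the ATO sarcomas Cdh5 was at place 1919 and 681, and Pecam1 at place 1581 and 869. Esam, an adhesion molecule of the same junction (ENSMUSG00000001946, chromosome 9, 37528078 to 37538319), measured 20.97 FPKM in PBS 1, 112.16 in PBS 2, 22.37 in ATO 1 and 27.57 in ATO 2. Pecam1 and Esam were thus near level in PBS 1 and ATO 1, whereas Cdh5 was lowest in ATO 1.

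The angiopoietin receptor Tek (ENSMUSG00000006386, chromosome 4, 94739289 to 94874976) rested on 319 reads in PBS 1, 10055 in PBS 2, 699 in ATO 1 and 739 in ATO 2, which gave 3.88, 118.74, 8.18 and 10.28 FPKM. Its partner Tie1 (ENSMUSG00000033191, chromosome 4, 118471191 to 118490061) stood at 15.79 FPKM in PBS 1, 118.35 in PBS 2, 15.58 in ATO 1 and 24.58 in ATO 2. In PBS 2 the receptors were at the same level, while in the other 3 sarcomas Tie1 was above Tek.

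Erg, the transcription factor (ENSMUSG00000040732, chromosome 16, 95359169 to 95586593), measured 6.82 FPKM in PBS 1, 48.32 in PBS 2, 7.48 in ATO 1 and 8.13 in ATO 2. Emcn (ENSMUSG00000054690, chromosome 3, 137341067 to 137432185) measured 7.74, 42.64, 5.51 and 12.31 FPKM. For Erg the 3 other sarcomas lay close together, and for Emcn ATO 2 lay above PBS 1 and ATO 1. Vwf (ENSMUSG00000001930, chromosome 6, 125546774 to 125686679) stood at 5.56 FPKM in PBS 1, 10.87 in PBS 2, 3.69 in ATO 1 and 6.84 in ATO 2, the narrowest span of the 10 members. Its rank in PBS 2 was 4979, below all the members but Prox1.

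The lymphatic markers were both highest in PBS 2 as well. Lyve1 (ENSMUSG00000030787, chromosome 7, 110850607 to 110863239) was at 7.49 FPKM in PBS 1, 169.92 in PBS 2, 8.22 in ATO 1 and 18.57 in ATO 2, and moved from place 6356 in PBS 1 to place 189 in PBS 2. Prox1 (ENSMUSG00000010175, chromosome 1, 190118035 to 190170714) was the lowest member, with 13 reads in PBS 1, 850 in PBS 2, 46 in ATO 1 and 124 in ATO 2, or 0.09, 5.64, 0.3 and 0.97 FPKM. Exons of Prox1 overlap those of Prox1os, a gene on the opposite strand, and whether the counting used strand is not given in the sources used here, so the Prox1 reads are uncertain.

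ETS factors such as Erg bind DNA around the letters GGAA, and promoter windows were read for the members because the 10 genes were all highest in the same sarcoma. RefSeq (GRCm38.p6) gave windows for 5 of the 10 genes, 8 windows in all, and the 250 bases before each start were searched on both strands. A pair of them is shown, the window of Tek, the member with the widest gap between PBS 2 and the next sarcoma, and an Erg window that also holds the longer ETS letters. Capitals mark GGAA, or TTCC where it lies on the other strand. The Tek window is chr4:94739039-94739288 on the plus strand and the Erg window chr16:95459349-95459598 on the minus strand.
Tek: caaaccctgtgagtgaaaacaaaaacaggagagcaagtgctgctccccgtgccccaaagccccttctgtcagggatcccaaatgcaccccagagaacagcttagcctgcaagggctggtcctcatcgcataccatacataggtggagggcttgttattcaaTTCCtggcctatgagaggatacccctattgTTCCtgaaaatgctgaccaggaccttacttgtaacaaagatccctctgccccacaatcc
Erg: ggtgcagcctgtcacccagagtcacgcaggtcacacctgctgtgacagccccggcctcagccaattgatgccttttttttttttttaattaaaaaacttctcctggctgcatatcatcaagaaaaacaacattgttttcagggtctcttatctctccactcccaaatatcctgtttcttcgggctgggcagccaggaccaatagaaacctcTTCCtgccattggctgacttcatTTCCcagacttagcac
The Tek window held 2 matches to GGAA and the Erg window 2, where 93.4% of all 32851 RefSeq windows of that length held at least 1 and the median was 3. The 8 windows ranged from 0 matches, in another Erg window, to 7, in that of Tie1. CAGGAAG, which contains GGAA, was present in 1 of 3 Erg windows and in that of Emcn, and in 10.8% of all windows. CCGGAAG was in none of the 8, and in 6.91% of all windows. These are counts of letters and say nothing about binding.

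The gap between the control sarcomas was expressed as the ratio of read counts in TMM-scaled CPM. It compares 1 library with 1 library, so no test exists, and the 95% exact binomial limits cover counting error only. Prox1 was 62.6 times higher in PBS 2 than in PBS 1 (36.4 to 118), Tek 30.2 times (27.0 to 33.9), Lyve1 22.4 times (20.2 to 24.8) and Pecam1 10.99 times (10.6 to 11.4). A middle set held Tie1 at 7.39 times (6.98 to 7.82), Erg at 6.98 (6.30 to 7.76), Cdh5 at 6.90 (6.67 to 7.13), Emcn at 5.43 (5.02 to 5.89) and Esam at 5.27 (4.94 to 5.64). Vwf was lowest, at 1.93 times (1.81 to 2.05). The limits of neighbours within the middle set overlap for Tie1, Erg and Cdh5 and for Emcn and Esam, whereas those of Prox1, Tek, Lyve1, Pecam1 and Vwf lie apart from those of the members next to them.

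**Figure D2:**
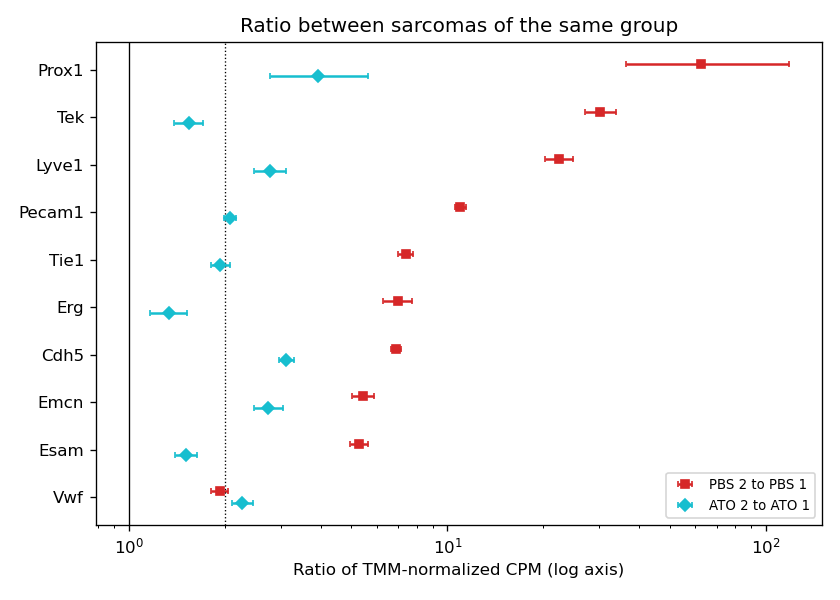
The ratio of TMM-scaled counts of PBS 2 to PBS 1 and of ATO 2 to ATO 1 for each of the 10 genes, on a log axis, with 95% exact binomial limits that cover counting error only. The control ratio runs from 1.93 for Vwf to 62.6 for Prox1 and the ATO ratio from 1.34 for Erg to 3.93 for Prox1.

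Against all genes, PBS 2 was at least 2 times above PBS 1 for 9 of the 10 members and for 19.2% of the 17188 tested genes. It was at least 2 times below PBS 1 for 0 members and for 15.1% of genes. The median member was 2.84 higher in PBS 2 on the log2 scale, where the median of all genes was 0.027 higher. PBS 2 was the highest of the 4 sarcomas for 10 of 10 members and for 23.7% of genes. Over the 4 sarcomas, ATO 2 was in each case the next highest, and PBS 2 exceeded it by 8.56 times for Tek, 6.78 for Lyve1, 4.70 for Pecam1 and 1.18 for Vwf. In bulk tissue, more endothelial cells and more of this RNA per cell cannot be told apart.

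**Figure D3:**
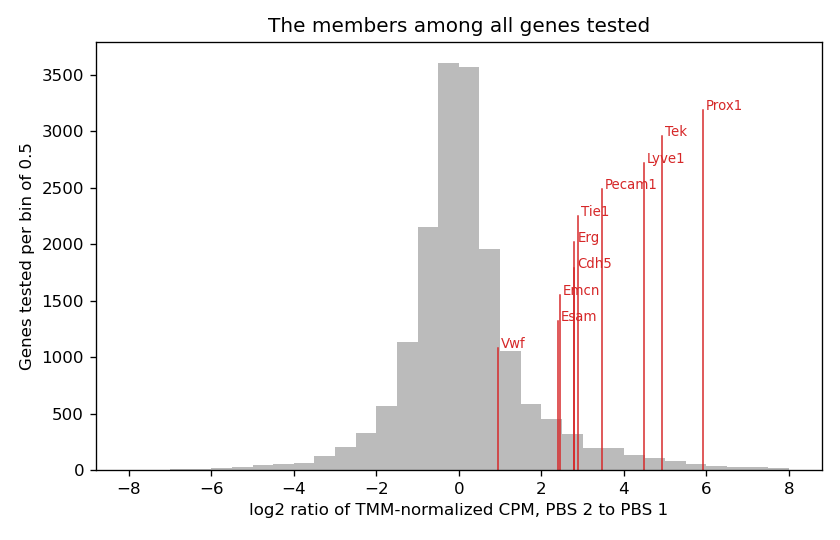
The distribution over the 17188 tested genes of the log2 ratio of PBS 2 to PBS 1, with the 10 members marked. The members have a median of 2.84, to the right of the median of all genes at 0.027.

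The ATO sarcomas differed from each other as well, by less. ATO 2 was above ATO 1 for all 10 members, and at least 2 times above for 6 of the 10, as for 18.4% of all tested genes. The ratio was 3.93 for Prox1, 3.12 for Cdh5, 2.77 for Lyve1, 2.74 for Emcn, 2.27 for Vwf and 2.08 for Pecam1, and between 1.34 and 1.94 for Erg, Esam, Tek and Tie1. The median member was 1.12 higher in ATO 2 on the log2 scale, against -0.001 over all genes. The order of the members was therefore not the one seen between the control sarcomas, in which Cdh5 and Vwf were among the lower ratios.

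The comparison the study was built for is ATO against PBS, and none of the 10 members passed it in edgeR's quasi-likelihood test (adjusted p under 0.05), nor did any of the 17188 genes (0%). The smallest adjusted p of a gene was 0.57, and 1463 genes had an unadjusted p under 0.05, none of them a member. Pecam1 averaged 961 ± 1133 CPM in PBS and 278 ± 138 in ATO (SD, n = 2 each), and its log2 fold change was -1.79 (SE 1.23, adjusted p = 0.714 by edgeR). Cdh5 averaged 810.5 ± 856 and 213 ± 155 CPM, with a log2 fold change of -1.93 (SE 1.15, adjusted p = 0.681 by edgeR). In both, the SD of the controls was larger than the mean itself.

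The kinase receptors had the same form. Tek averaged 262 ± 346 CPM in PBS and 48.8 ± 14.7 in ATO, for a log2 fold change of -2.42 (SE 1.504, adjusted p = 0.689 by edgeR). Tie1 averaged 299 ± 322 and 112 ± 50.5 CPM, for a log2 fold change of -1.42 (SE 1.03, adjusted p = 0.732 by edgeR). Lyve1 gave -2.38 (SE 1.47) and Prox1 -1.81 (SE 1.79), with 235 ± 303 and 21.8 ± 29.8 CPM in PBS against 45.1 ± 30.0 and 6.23 ± 5.24 in ATO. Of the others Erg gave -1.52, Emcn -1.16 and Esam -1.11, and Vwf, at 120 ± 53.8 CPM in PBS and 96.7 ± 53.2 in ATO, gave -0.31 (SE 0.61, adjusted p = 0.909 by edgeR). For all 10 members the groups overlapped.

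All 10 fitted values were lower in ATO, as were those of 50.8% of all tested genes, and the median member was -1.66 against -0.016 over all genes. That direction rested on PBS 2. Without PBS 2 the fitted value was higher in ATO for all 10 members, with a median of 0.59, 0.79 for Pecam1, 1.53 for Tek and 0.045 for Cdh5. Without PBS 1 the median was -2.50. No member had both ATO sarcomas below both PBS sarcomas, as 20.2% of genes did, or both above, as 19.7% did. For 7 of the 10 both ATO sarcomas lay between PBS 1 and PBS 2, against 15.2% of genes.

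**Figure D4:**
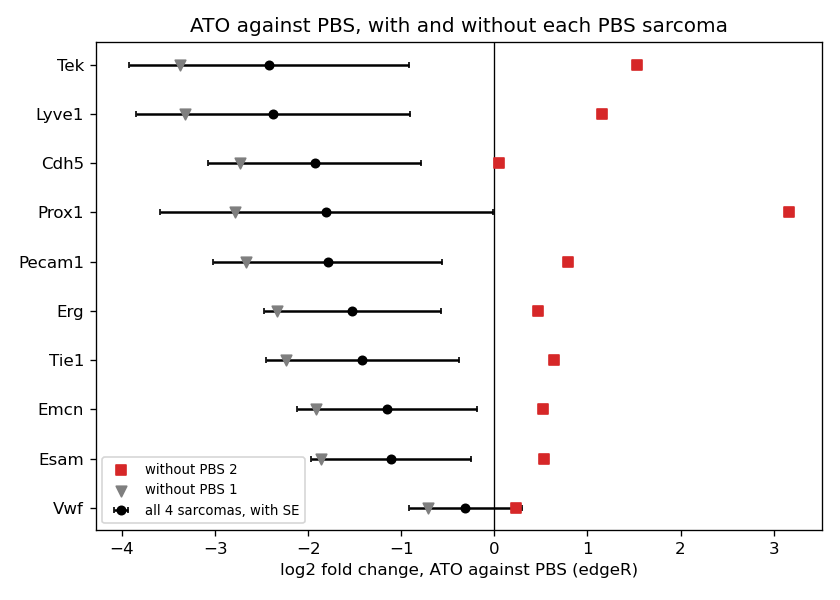
The log2 fold change of each member, ATO minus PBS, with its standard error, from all 4 sarcomas and again without PBS 2. With all 4 sarcomas every value is below 0, from -0.31 for Vwf to -2.42 for Tek, and without PBS 2 every value is above 0, from 0.045 for Cdh5 to 3.17 for Prox1.

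Other endothelial genes were mostly highest in PBS 2 too. Of 17 further endothelial surface and junction genes, all of which passed the filter on low counts, PBS 2 was highest for 17 and at least 2 times above PBS 1 for 16. Cldn5, the claudin of endothelial tight junctions, stood at 15.77 FPKM in PBS 1, 355.67 in PBS 2, 25.9 in ATO 1 and 23.09 in ATO 2. Plvap, the diaphragm protein of fenestrated vessels, stood at 63.28, 153.49, 45.15 and 84.1 FPKM. Nos3, the endothelial nitric oxide synthase, had the list's largest fitted difference between ATO and PBS, with 5.86, 174.56, 5.12 and 9.07 FPKM (log2 fold change -3.34, SE 1.59, adjusted p = 0.626 by edgeR). The median gene of this list was 2.40 higher in PBS 2 than in PBS 1 on the log2 scale.

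Of 11 endothelial transcription factors other than Erg and Prox1, PBS 2 was highest for 9 and at least 2 times above PBS 1 for 10. Sox18, a factor of vessel and lymphatic development, measured 23.08, 159.2, 15.15 and 32.64 FPKM in PBS 1, PBS 2, ATO 1 and ATO 2. Klf2, which responds to blood flow, measured 10.54, 101.53, 37.65 and 36.01 FPKM. Sox7, with the list's largest fitted difference, measured 6.07, 48.07, 1.4 and 6.36 FPKM. Klf2 was thus higher in both ATO sarcomas than in PBS 1, and Sox7 was lowest in ATO 1.

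The ligands and other pathway genes of Tek and Tie1 were not highest in PBS 2 as a list. Of 6 genes of the angiopoietin and Tie pathway, PBS 2 was highest for 1 in CPM and 2 in FPKM. The shares over all tested genes were 23.7% and 30.2%. PBS 2 was at least 2 times above PBS 1 for 1 of the 6, and the median was -0.04 on the log2 scale. Angpt2, the angiopoietin made by endothelium itself, stood at 5.87 FPKM in PBS 1, 11.07 in PBS 2, 8.83 in ATO 1 and 10.05 in ATO 2. Angpt4 stood at 1.67, 1.19, 31.29 and 1.01 FPKM, so that its list's largest fitted difference (log2 fold change 3.63, adjusted p = 0.597 by edgeR) came from ATO 1.

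Of 9 lymphatic genes other than Prox1 and Lyve1, 8 passed the filter, and PBS 2 was highest for 6 and at least 2 times above PBS 1 for 5. Ccl21a, the chemokine of lymphatic vessels, measured 1.78 FPKM in PBS 1, 315.82 in PBS 2, 10.33 in ATO 1 and 52.05 in ATO 2, but it has near-identical copies among which reads can be split. Pdpn, used by lymphatic endothelium and by fibroblasts, measured 72.6, 61.65, 4.76 and 86.16 FPKM. Stab2, a scavenger receptor of lymphatic and sinusoidal endothelium, measured 0.14, 0.13, 4.06 and 0.13 FPKM. Ccl21a therefore had the order of Prox1 and Lyve1, with PBS 2 first and ATO 2 next, and Pdpn and Stab2 did not. Mmrn1, a further gene of the list chosen after its values were seen, had that order too, at 0.33, 10.49, 3.87 and 7.14 FPKM. The rest of the list that passed the filter did not have it in FPKM. Reln, Nr2f2, Itga9 and Foxc2 were highest in PBS 2, but ATO 1 was next for Reln and PBS 1 for Nr2f2, Itga9 and Foxc2.

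Genes of vessel types were mixed. Over all tested genes, PBS 2 was highest for 23.7% in CPM and 30.2% in FPKM. Of 11 arterial and venous genes, PBS 2 was highest for 6, among them Ephb4, the venous ephrin receptor, at 27.1, 120.39, 12.66 and 14.98 FPKM. Selp, the selectin of veins and platelets, measured 0.43, 13.69, 3.76 and 49.75 FPKM. Of 7 genes of fat and muscle capillaries, PBS 2 was highest for 1 in CPM and 2 in FPKM. Gpihbp1, which holds lipoprotein lipase, was highest there on both scales, at 10.36, 93.97, 20.3 and 16.45 FPKM. Rgcc measured 9.04, 13.82, 104.22 and 82.88 FPKM and Car4, a carbonic anhydrase, 0.03, 1.47, 4.57 and 21.9, both higher in the ATO sarcomas than in either control. Of 5 endothelial genes of clotting and fibrinolysis, PBS 2 was highest for 5. Plat, the tissue plasminogen activator, measured 45.71, 58.9, 1.46 and 5.43 FPKM and Procr, the protein C receptor, 12.97, 54.85, 2.85 and 17.1. No gene of any of these lists passed the test between ATO and PBS.

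The list medians of ATO against PBS turned sign without PBS 2 for several of these lists, as those of the members did. The surface list went from -1.31 to 0.44, the transcription factors from -0.45 to 0.65, the lymphatic list from -0.22 to 0.82 and the arterial and venous list from -0.47 to 0.86. The arterial and venous median also turned sign without ATO 1, at 0.08. The clotting list went from -1.38 to -0.01, and the capillary list, which was higher in ATO, from 1.28 to 2.66.

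Markers of other cells moved with the members in part, and their part in the result was not tested. Of 10 mural cell genes, those of pericytes and vascular smooth muscle, PBS 2 was highest for 9. It was also at least 2 times above PBS 1 for 9 (median 2.07 on the log2 scale). The exception, Pdgfrb, was named after its values were seen. It measured 98.6 FPKM in PBS 1, 70.79 in PBS 2, 36.17 in ATO 1 and 23.72 in ATO 2. Mcam stood at 60.37, 289.08, 16.18 and 48.77 FPKM in PBS 1, PBS 2, ATO 1 and ATO 2, Rgs5 at 30.95, 216.83, 25.56 and 52.9, and Higd1b at 2.43, 23.91, 1.43 and 1.86. Of 9 platelet and megakaryocyte genes, PBS 2 was highest for 9 and at least 2 times above PBS 1 for 8 (median 5.54). Their summed FPKM was 124.3 in PBS 1, 557.3 in PBS 2, 328.2 in ATO 1 and 144.3 in ATO 2. Pf4 stood at 116.02, 183.06, 117.48 and 134.52 FPKM, Ppbp at 5.34, 252.73, 161.16 and 7.02, and Gp9 at 0.39, 39.92, 14.52 and 0.15. The 6 erythroid genes summed to 298.2, 19840, 11010 and 1128 FPKM, with Hbb-bs at 173.41, 11236.29, 5478.96 and 672.98. PBS 2 was at least 2 times above PBS 1 for all 6 (median 6.12 on the log2 scale). The platelet and erythroid sums were thus highest in PBS 2 and next highest in ATO 1, but Pf4 was near level in PBS 1 and ATO 1. Pf4 made up most of the platelet sum in PBS 1 and in ATO 2, so those sums say little about the rest of the list.

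Of 12 leukocyte and macrophage genes, 11 passed the filter, and PBS 2 was highest for 3 in CPM and 4 in FPKM. Over all tested genes it was highest for 23.7% in CPM and 30.2% in FPKM. Against PBS 1, PBS 2 was at least 2 times higher for 4 of the 11 and at least 2 times lower for 7. Lyz2, the lysozyme of macrophages and neutrophils, stood at 1497.08, 698.2, 594.32 and 5114.59 FPKM in PBS 1, PBS 2, ATO 1 and ATO 2, and S100a8 of neutrophils at 37.87, 1585.59, 441.24 and 224.17. The 6 fibroblast genes summed to 3667, 646.5, 2589 and 1006 FPKM. PBS 2 was highest for 0 of them and at least 2 times below PBS 1 for 4. Skeletal muscle genes summed to 4.93, 107, 11750 and 866.3 FPKM and adipocyte genes to 0.11, 0.86, 78.06 and 575.1, so that both ATO sarcomas held more muscle and fat RNA than either control. PBS 2 was at least 2 times above PBS 1 for all 8 muscle genes that passed the filter (median 6.06 on the log2 scale). Of the 9 muscle genes, 3 had 0 reads in PBS 1. A gap between the control sarcomas was therefore not particular to endothelial lists. Osteoblast genes summed to 575.7, 110.4, 2273 and 871.3 FPKM and chondrocyte genes to 8.48, 14.18, 72.43 and 10.32. Spp1 made up most of the osteoblast sum in each sarcoma, at 563.95, 105.41, 1846.72 and 869.65 FPKM. Ibsp, of the same list, measured 0.3, 0.35, 290.95 and 0.29 FPKM, near 0 outside ATO 1. Hepatocyte genes, of a tissue that uses Prox1, reached 0.68 FPKM in sum and epithelial genes 20.17 FPKM, the highest of the 4 sarcomas in each case. Osteoblast, fibroblast and hepatocyte sums were lower in PBS 2 than in PBS 1.

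**Figure D5:**
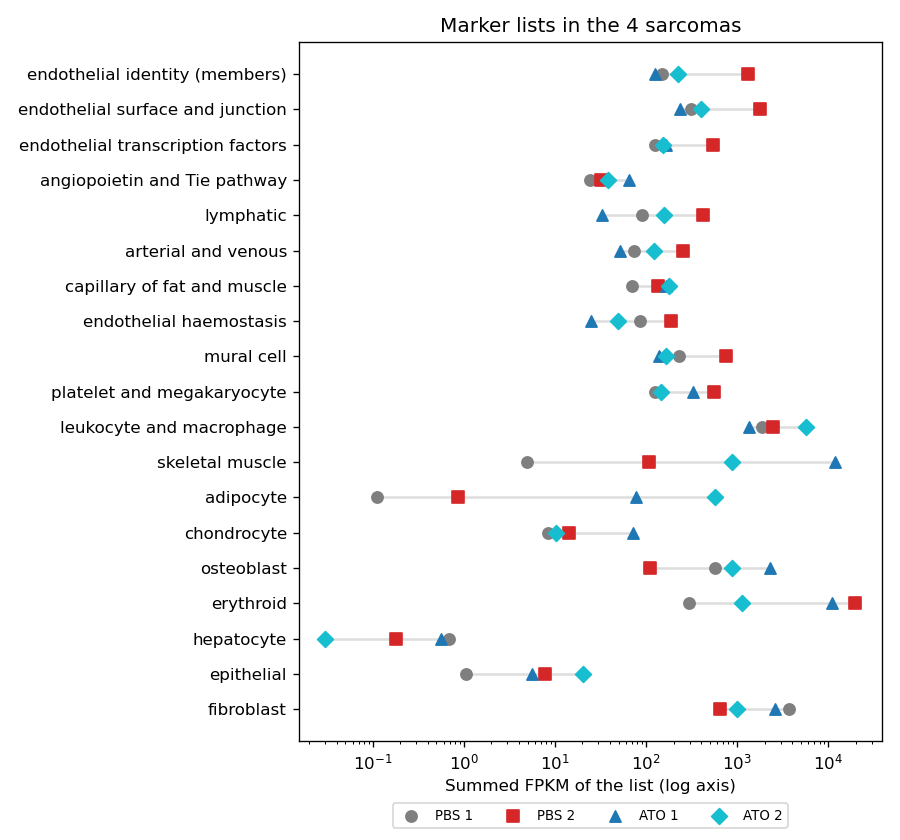
The summed FPKM of the members and of the other marker lists in each of the 4 sarcomas, on a log axis, with 1 point a sarcoma. The members, the endothelial surface genes and the mural genes are highest in PBS 2, while fibroblast genes are highest in PBS 1 and muscle genes in ATO 1.

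The genes whose levels over the 4 sarcomas were closest to the median member were found by distance on the centred log2 CPM scale, among 10855 genes with a mean of at least 10 CPM. The 10 nearest were Sema3f (0.066), Ndufa4l2 (0.166), Egfl7 (0.201), Pkn3 (0.225), Flt1 (0.23), Robo4 (0.247), Rgs5 (0.303), Ankrd37 (0.319), Apobr (0.337) and Sox18 (0.366). Egfl7, Robo4 and Sox18 belong to the endothelial lists, Ndufa4l2 and Rgs5 to the mural list, and Flt1 is a Vegf receptor. Sema3f, a secreted semaphorin, measured 7.17, 58.02, 6.49 and 10.6 FPKM in PBS 1, PBS 2, ATO 1 and ATO 2. Of the members, Tie1 lay closest to that median (0.168), and Vwf (1.589) and Prox1 (2.335) farthest from it. The 100 nearest genes were 0.921% of those eligible and held 7 of 17 endothelial surface genes, 2 of 8 mural genes, 2 of 10 arterial and venous genes, and 1 each of the transcription factor, capillary and clotting lists. They held 0 of the lymphatic, angiopoietin, platelet, leukocyte and erythroid genes, and 0 of the other lists. This is a likeness over 4 libraries, all of which are shared between the genes.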

How the data were processed

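RNA from 4 sarcomas was sequenced in bulk. The authors trimmed, aligned and counted the reads per gene (the submitters' notes name FastQC 0.10.1, cutadapt 1.9.1 and HISAT2 2.0.1, with GRCm38), and deposited raw counts and FPKM values side by side. The labels name TRIzol and a SMARTER kit, the methods a spin column and TruSeq. Positions in the table matched GENCODE M21 for 2.83% of shared genes, so those given here were taken from GENCODE M21 (GRCm38) by Ensembl ID.

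From the deposited counts, genes were filtered (filterByExpr), scaled by TMM and tested with edgeR 4.0.16 (quasi-likelihood, Benjamini-Hochberg threshold 0.05, R 4.3.3) over all genes. Log2 CPM values, and the counts of genes at least 2 or 4 times apart, used a prior count of 0.5. The ratios printed for single members used none. Each standard error (SE) was the absolute log2 fold change divided by the square root of the test's F statistic. The deposited FPKM values served for levels. Alternatives were other scaling, DESeq2 1.42.0, no filter, limma 3.58.1 on log2 FPKM, mitochondrial genes left out, a replicate block and each sarcoma left out. The edgeR test was also run on simulated counts, but the outcome is not given here and backs no result. A count of 3 stands for 0.165 to 0.197 CPM, and counting limits cover counting error only.

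The members and the 18 other gene lists were chosen with earlier results of these data known. The fold limits set against each other sarcoma, and the counts repeated in FPKM, were chosen after the values were seen. Named by rule were the 10 members, of each other list the 2 genes highest in mean FPKM and the 1 with the largest fold change, and the 10 genes nearest in pattern. For muscle, fat, cartilage, liver, epithelium and fibroblasts only sums and counts of genes are given, and for bone the sums with Spp1 and Ibsp. Another gene that the rule names, on the erythroid list, is not reported here.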

Additional observations from a re-analysis of the deposited data

How the results depend on the processing

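Of the 10 members 0 were called in all 11 alternatives. Over all genes, DESeq2 called 714 (560 higher and 154 lower in ATO) and edgeR without the filter 541 (454 and 87), against 0 otherwise. The median member fell between -2.50 and 0.59 with each sarcoma left out, and the number of members lower in ATO between 0 and 10. The log2 fold change with each sarcoma left out spanned -2.67 to 0.79 for Pecam1, -2.96 to 0.045 for Cdh5, -3.38 to 1.53 for Tek, -2.24 to 0.65 for Tie1, -1.01 to 0.23 for Vwf, -2.33 to 0.47 for Erg, -2.05 to 0.52 for Emcn, -1.86 to 0.53 for Esam, -3.09 to 3.17 for Prox1 and -3.32 to 1.16 for Lyve1. Each upper value is without PBS 2. Vwf also turned sign without ATO 1, at 0.15. With the replicate block the median member was -0.91 and all 10 stayed lower. The labels do not tie ATO and PBS samples of the same number to each other. The deviations of ATO 1 and PBS 1 from their group means had r = -0.027 over genes. For all 10 members, however, replicate 2 was above replicate 1 in both groups. A value over all genes therefore cannot settle whether the numbers hold a pairing. The block changed no member's call, but 0 genes were called with or without it. The gap between PBS 2 and PBS 1 kept 9 of 10 members at least 2 times apart under each scaling. Depth limits Prox1 most, which rests on 13 reads in PBS 1.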
